A study of Mus musculus with 15 samples.

Results

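The genes described here were 10 early-response genes of antigen-receptor signalling, chosen by name: the nuclear receptors Nr4a1, Nr4a2 and Nr4a3, the zinc finger factors Egr1, Egr2 and Egr3, the AP-1 subunits Fos, Fosb and Junb, and the activation marker Cd69. All 10 were among the 18194 genes named on the array, and 9 of them, all but Fosb, were among the 15498 genes tested. CD4+ T cells came from 3A9 mice, which carry a transgenic T cell receptor for hen egg lysozyme (HEL), and were sorted for that receptor. They were cultured for 4 days under Th1 conditions (10 ng/ml IL-12 and 10 μg/ml anti-IL-4), Th9 conditions (10 ng/ml IL-4 and 1 ng/ml TGF-β) or Th17 conditions (IL-6 at 10 ng/ml, IL-1α at 5 ng/ml, TGF-β at 3 ng/ml, and antibodies against IFN-γ at 20 μg/ml and against IL-12 and IL-4 at 10 μg/ml each). In the HA groups, naive wild-type splenocytes irradiated with 30 Gy presented HEL, at 1 μg/ml in Th9 and 2 μg/ml in Th1 and Th17 cultures. In the PBAB groups, plate-bound antibodies against CD3 (1 μg/ml) and CD28 (10 μg/ml) replaced antigen and splenocytes. Each of these 6 activated groups had 2 arrays, and each culture had 1 array labelled APC alone, for which the labels do not define the content further. The age of the mice is not given in the labels. The comparison asks how antibody activation differs from antigen presentation, so splenocytes were part of the HA cultures and not of the PBAB cultures.

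Nr4a, Egr and AP-1 genes are transcribed within minutes to hours of T cell receptor engagement, and their transcripts are usually short-lived. Nr4a receptors are held to act without a known natural ligand and are associated with tolerance and exhaustion of T cells. Egr2 and Egr3 are known to restrain T cell activation, Egr1 responds to MAP kinase signalling through serum response factor, and Fos and Jun proteins pair as AP-1. Cd69 is a membrane lectin that appears early on activated lymphocytes and holds them in tissue by removing the sphingosine phosphate receptor S1pr1 from the surface.

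The promoters of the 3 Nr4a genes are shown because these genes separated the activations, with that of Fos as a member that was not called between them. Of the RefSeq windows (GRCm38.p6), 11 start windows of 7 of the 10 members were searched, of which Egr2 had 5. No window of Egr1, Egr3 or Cd69 was searched. Member windows on 1 chromosome were left out of this search, though that chromosome was kept among all windows. Whether the RefSeq windows held further members is therefore not shown here. The 250 bases before each start are written 5′ to 3′ in the direction of transcription, and capitals mark the core of the cAMP response element (CRE), TGACG or its complement CGTCA.
Nr4a1 (chr15:101266596-101266845, plus strand): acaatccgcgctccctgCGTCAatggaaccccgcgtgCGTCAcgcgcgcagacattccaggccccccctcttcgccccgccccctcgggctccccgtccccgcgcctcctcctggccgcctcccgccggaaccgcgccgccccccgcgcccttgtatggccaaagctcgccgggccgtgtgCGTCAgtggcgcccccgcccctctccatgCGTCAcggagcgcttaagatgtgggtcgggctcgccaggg
Nr4a2 (chr2:57124004-57124253, minus strand): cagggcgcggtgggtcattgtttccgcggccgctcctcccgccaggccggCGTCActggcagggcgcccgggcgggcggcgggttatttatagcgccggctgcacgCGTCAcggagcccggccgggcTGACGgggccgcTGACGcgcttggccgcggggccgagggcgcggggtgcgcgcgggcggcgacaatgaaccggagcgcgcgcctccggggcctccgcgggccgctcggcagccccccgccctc
Nr4a3 (chr4:48045055-48045304, plus strand): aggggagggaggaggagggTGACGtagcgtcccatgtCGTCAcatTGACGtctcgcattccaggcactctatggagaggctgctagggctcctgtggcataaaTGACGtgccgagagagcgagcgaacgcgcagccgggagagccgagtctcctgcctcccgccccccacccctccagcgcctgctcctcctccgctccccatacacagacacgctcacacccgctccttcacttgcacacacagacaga
Fos (chr12:85473640-85473889, plus strand): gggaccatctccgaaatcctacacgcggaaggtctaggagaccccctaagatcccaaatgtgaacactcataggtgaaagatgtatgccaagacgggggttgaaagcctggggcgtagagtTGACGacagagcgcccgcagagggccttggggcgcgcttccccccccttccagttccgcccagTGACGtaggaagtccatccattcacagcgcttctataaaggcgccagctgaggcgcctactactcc
The CRE is the element to which CREB and ATF factors bind. Its core occurred 4 times in each of the Nr4a1, Nr4a2 and Nr4a3 windows and 2 times in that of Fos. The Junb and Fosb windows held 1 each. Of all 32851 windows of the same length, 17.77% held at least 1 core and 45, or 0.137%, held 4 or more. The windows of Nr4a1, Nr4a2 and Nr4a3 were 74.4%, 80.0% and 63.6% G or C, and that of Fos 58.4%. The set of all windows was not matched for this content. The full CRE, TGACGTCA, overlaps a core on each strand, and was in 1.55% of all windows and in none of the 11. The other motifs were also searched on both strands. None of the 11 windows held the AP-1 motif TGANTCA (6.75% of all windows) or the Nr4a response element AAAGGTCA (1.34%). The EGR motif GCGNGGGCG was found in the windows of Nr4a1, Nr4a2 and Fosb, against 4.7% of all windows. The NFAT core GGAAA was in 5 of the 11 windows, against 55.57%, and the CArG box, the serum response factor element, was in 4 of the 5 Egr2 windows, against 1.47%. Overlapping Egr2 windows share sequence. The matches describe these letters only and are no measure of binding.

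**Figure D1:**
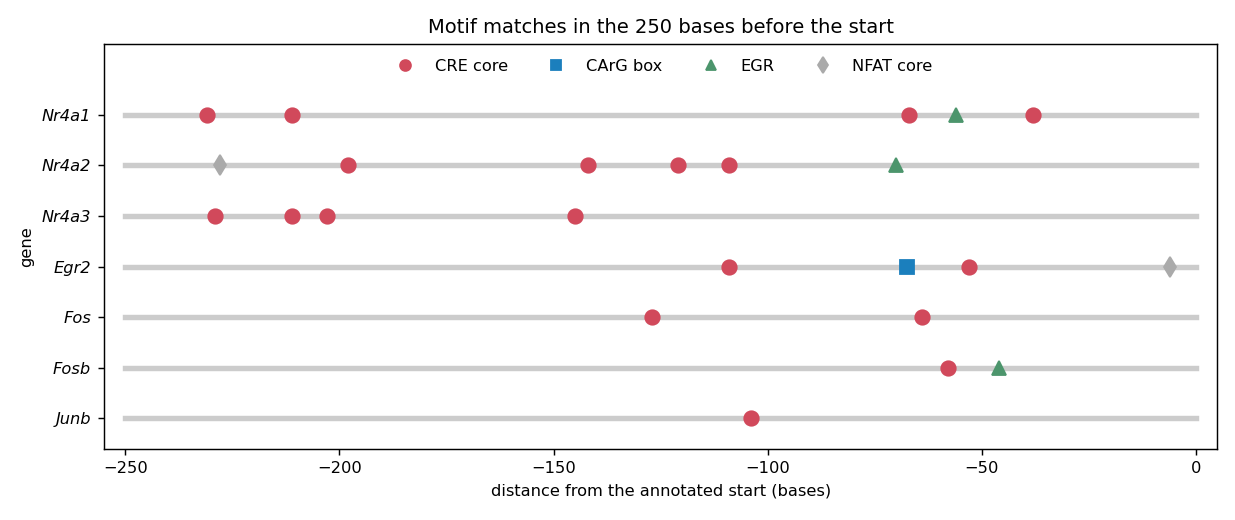
Motif matches (symbols) in the 250 bases before the start of the 7 members searched. The horizontal axis is the distance from the start in bases, with 1 line per gene. The windows of Nr4a1, Nr4a2 and Nr4a3 each hold 4 CRE cores, and the Egr2 window shown, 1 of its 5, holds 2 CRE cores and a CArG box.

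Values were log2 expression levels, and a signal was treated as low below 5.07, the 40th percentile of the table. A gene is referred to as called where its Benjamini-Hochberg adjusted p from limma, over all genes tested, was under 0.05. Replicate arrays of the activated groups correlated at 0.986 to 0.989 over all genes, whereas arrays of APC alone correlated with activated arrays at 0.614 to 0.727. The mean of 10 T cell markers was 10.6 to 11.2 in HA, 10.7 to 11.1 in PBAB and 6.58 to 7.76 in APC alone arrays, and that of 11 macrophage and monocyte markers was 4.96 to 6.69, 4.90 to 5.39 and 9.29 to 9.62. The APC alone arrays thus went against the CD4+ T cell source in their labels. The 8 proliferation markers had means of 11.5 to 11.9 in HA and 9.04 to 10.9 in PBAB arrays, and the 3′ minus 5′ signal of the actin control probes, which tracks RNA integrity, was 0.05 to 0.11 in HA, 0.12 to 0.28 in PBAB and 0.74 to 0.99 in APC alone arrays. In these whole cultures, fewer cells of a type and less RNA per cell cannot be told apart.

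The 3 Nr4a genes were higher under PBAB than under HA in every lineage. Averaged over lineages, Nr4a3 was 10.3-fold higher, Nr4a2 8.27-fold and Nr4a1 5.77-fold, with no overlap between the 6 PBAB and the 6 HA arrays for any of them. Of the 9 members tested, 4 were called higher in the average and 0 lower, against 13.2% of all genes called higher, 17.3% lower and 30.6% in all. The median difference was 0.50 over these 9 members and 0.02 over all genes. Groups that did not overlap, with all PBAB above all HA arrays, were found for 3 of 9 members and 4.65% of all genes. Across all 15498 genes the differences of Nr4a3, Nr4a2 and Nr4a1 ranked 8, 10 and 26 from the highest.

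**Figure D2:**
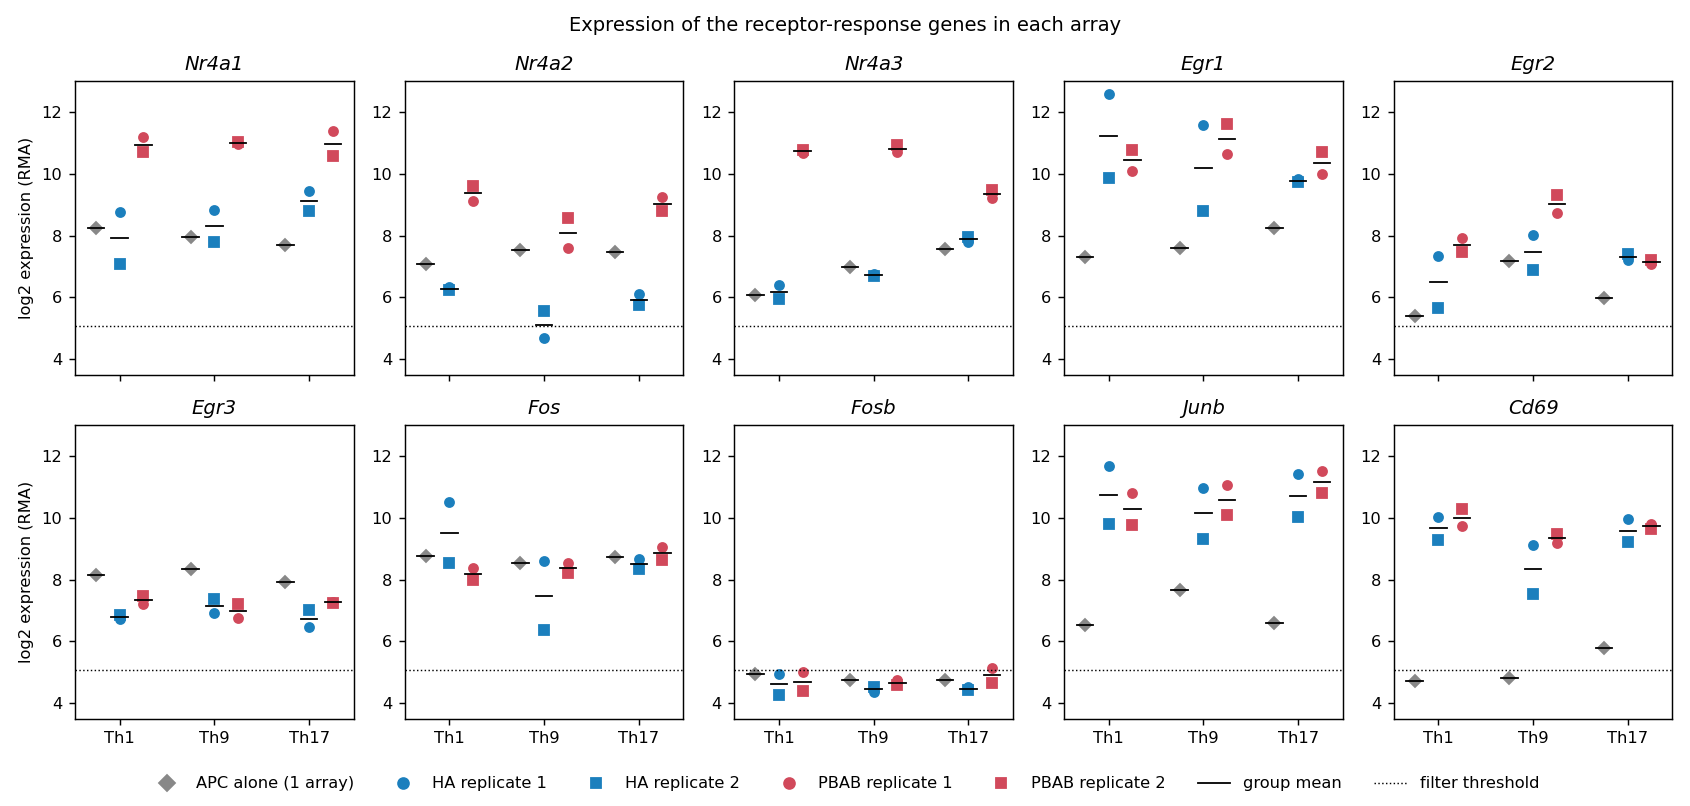
Deposited log2 level of each of the 10 members on each of the 15 arrays, by lineage on the horizontal axis and activation by colour. Symbols are arrays, bars are group means and the dotted line is the threshold of 5.07. The PBAB arrays of Nr4a1, Nr4a2 and Nr4a3 lie above all HA arrays, while Egr1, Fos and Junb spread widely within the HA groups and Fosb stays near or below the line.

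Nr4a1, or Nur77, is an orphan nuclear receptor often used as a reporter of receptor signal strength. Its levels were 8.76 and 7.07 in Th1 HA, 8.81 and 7.78 in Th9 HA, and 9.44 and 8.79 in Th17 HA cultures. Under PBAB they were 11.18 and 10.70 in Th1, 10.97 and 11.03 in Th9, and 11.37 and 10.58 in Th17 cultures. The PBAB groups lay within a narrow band and the HA groups were lower and more spread, with the lowest array in Th1. The averaged difference was 2.53 ± 0.30 (log2, SE; adjusted p = 0.00013). By lineage it was 3.02 ± 0.52 in Th1 (adjusted p = 0.00347), 2.70 in Th9 (0.00688) and 1.86 in Th17 (0.0321). The Th17 call was lost without any of its 4 arrays, at adjusted p from 0.053 to 0.2, and the Th9 call was lost without Th9 HA replicate 2 (adjusted p = 0.0614).

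Nr4a2, or Nurr1, is the close relative known best from dopaminergic neurons. Under HA its levels were 6.33 and 6.23 in Th1, 4.68 and 5.55 in Th9, and 6.10 and 5.74 in Th17 cultures. Under PBAB they were 9.13 and 9.61 in Th1, 7.58 and 8.56 in Th9, and 9.23 and 8.80 in Th17 cultures. Th9 cultures were the lowest under both activations, and 1 of their HA arrays was below 5.07. The averaged difference of 3.05 ± 0.21 (adjusted p = 5.01e-06) was made up of 3.09 in Th1, 2.96 in Th9 and 3.09 in Th17 (SE 0.36 each). Its folds were 8.53, 7.77 and 8.54, at adjusted p from 0.000395 to 0.00063. The difference between Th17 and Th1 in this response was 0.00 (adjusted p = 0.999), with a 95% interval from -1.12 to 1.12.

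Nr4a3, or Nor1, had levels of 6.40 and 5.94 in Th1 HA, 6.76 and 6.68 in Th9 HA, and 7.78 and 7.96 in Th17 HA cultures. Under PBAB its levels were 10.66 and 10.78 in Th1, 10.70 and 10.93 in Th9, and 9.22 and 9.47 in Th17 cultures. Th17 cultures were thus highest of the lineages under HA and lowest under PBAB, with no overlap with the other lineages in either. The difference between activations was 4.55 ± 0.19 in Th1 (23.4-fold, adjusted p = 1.6e-06), 4.09 ± 0.19 in Th9 (17.1-fold, adjusted p = 4.5e-06) and 1.47 ± 0.19 in Th17 cultures (2.77-fold, adjusted p = 0.000811). The averaged difference was 3.37 ± 0.11 (adjusted p = 2.34e-07).

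The response of Nr4a3 differed between lineages. In the F test of activation by lineage, Nr4a3 had an adjusted p of 0.000882 and was called as 1 of 9 members, against 4.19% of all genes. In the pairwise tests of the response, 3.53% of all genes were called for Th17 against Th1, 1.71% for Th17 against Th9 and 1.37% for Th9 against Th1. The response in Th17 was smaller than in Th1 by a log2 difference of -3.08 ± 0.27 (adjusted p = 0.000634) and than in Th9 by -2.62 ± 0.27 (adjusted p = 0.0022). Th9 and Th1 differed by -0.46 ± 0.27 (adjusted p = 0.623). Lineages differed under both activations. Under HA, Th17 was above Th1 by 1.70 (adjusted p = 0.000355) and above Th9 by 1.15 (adjusted p = 0.00682), the latter being lost without Th17 HA replicate 2 (adjusted p = 0.0579). Under PBAB, Th17 was below Th1 by a log2 difference of -1.38 (adjusted p = 0.00167) and below Th9 by -1.47 (adjusted p = 0.00132).

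**Figure D3:**
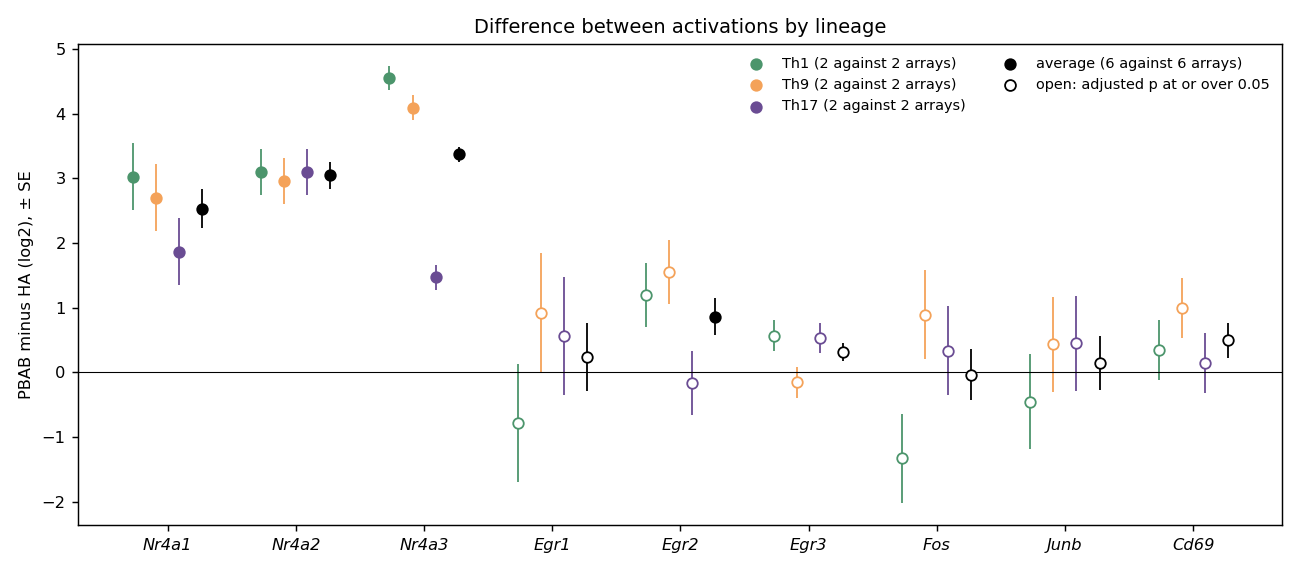
PBAB minus HA difference (log2, points) with its standard error (bars) for the 9 members tested, by lineage and in the average over lineages, with open points where the adjusted p was not under 0.05. Nr4a1, Nr4a2 and Nr4a3 lie above 0 in all lineages, with Nr4a3 at 4.55, 4.09 and 1.47.

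Other measures moved with the same comparison. All 8 proliferation markers were called lower under PBAB, against 17.3% of all genes. Of 11 macrophage and monocyte markers 6 were lower and 1 higher, against 17.3% and 13.2% of all genes. Lyz2, the macrophage lysozyme, was at -3.35 ± 0.23, and Cd68, the marker called higher, was at 1.00 ± 0.22. In the Th17 comparison Lyz2 was at -5.21, and 6 of the 11 were lower, against 17.1% of all genes called in either direction. The lineages were not alike. In Th9, 3 of the 11 were lower and 1 higher, against 13.7% of all genes called in either direction. In Th1, 0 were lower and 1 higher, against 14.6%. The APC alone arrays had Nr4a1 at 7.68 to 8.25, Nr4a2 at 7.10 to 7.53 and Nr4a3 at 6.07 to 7.56, below every PBAB array of the same gene. C1qb, C1qc, Adgre1, Cd14 and Cd36 were below 5.07 in all PBAB arrays, and Cd36 was below it in all HA arrays as well. The actin 3′ minus 5′ signal was higher in every PBAB array than in every HA array. The part of proliferation, splenocyte RNA and RNA integrity in the Nr4a differences was not tested.

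The probe sets of an Nr4a gene did not all show the difference. For Nr4a2, 5 of 6 probe sets were called higher in the average, from 0.68 to 3.36 (the latter 1455034_at, with a Th9 HA signal below 5.07). The remaining 1433422_at was at -0.11 ± 0.14 (adjusted p = 0.641). Within each lineage 4 of 6 were called. In Th1, Th9 and Th17, 1450750_a_at was at 3.02, 1.97 and 2.37, and 1433423_at at 0.14, 1.24 and 0.67. The lineage interaction of 1450750_a_at was called with the replicate block (adjusted p = 0.0404) but not without it (0.227). For Nr4a3 the response rested on the probe set used. Its 1421080_at had levels of 5.99 to 6.50 in HA and 5.91 to 6.64 in PBAB arrays, a difference of 0.04 (adjusted p = 0.867). Its 1421079_at was below 5.07 in all arrays, at 0.30 (adjusted p = 0.0466). With the mean of all probe sets the averaged difference was 1.24 for Nr4a3 and 1.76 for Nr4a2, both called (adjusted p = 1.56e-05 and 3.48e-06), and the Nr4a3 interaction was called at an adjusted p of 0.0431. With 1421080_at or 1421079_at alone the interaction was not called (adjusted p = 0.755 and 0.888). Nr4a1 had 1 probe set.

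**Figure D4:**
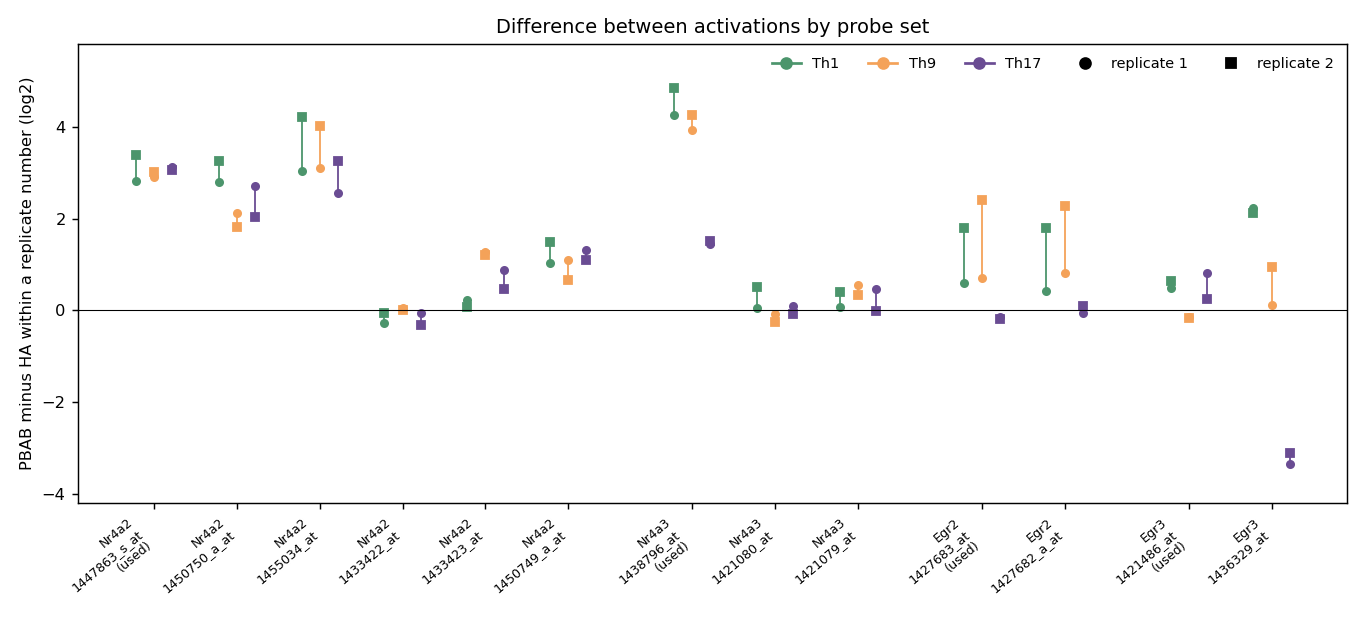
PBAB minus HA within each replicate number (log2, vertical axis) for every probe set of Nr4a2, Nr4a3, Egr2 and Egr3, with colours for lineages and symbols for replicate numbers. The probe set 1436329_at of Egr3 lies above 0 in Th1 (mean 2.18) and below 0 in Th17 cultures (mean -3.22, with the PBAB signal below 5.07), where 1421486_at of the same gene has a mean of 0.53.

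Of the Egr genes, Egr2 was higher under PBAB in the average, and the responses of Egr1 and Egr3 did not pass the test there. Egr2 is a zinc finger factor that takes part in T cell anergy. Its levels were 7.33 and 5.65 in Th1 HA and 7.93 and 7.45 in Th1 PBAB cultures. In Th9 cultures they were 8.03 and 6.89 under HA and 8.72 and 9.31 under PBAB, the highest of the series. In Th17 cultures they were 7.20 and 7.39 under HA and 7.06 and 7.20 under PBAB. The 2 HA and 2 PBAB arrays did not overlap in Th1 and Th9 and overlapped in Th17 cultures. Neither the Th1 nor the Th9 difference passed the test without the replicate block. The share of all genes without such overlap in a lineage was not counted. The averaged difference was 0.86 ± 0.29 (1.82-fold, adjusted p = 0.0418), with 1.20 in Th1 (adjusted p = 0.144), 1.55 in Th9 (0.0653) and -0.16 in Th17 (0.885). The averaged call was lost with centred arrays (adjusted p = 0.0521) and without any of 9 of the 12 activated arrays (0.0533 to 0.106), all but Th1 HA replicate 1, Th9 HA replicate 1 and Th9 PBAB replicate 1. With the replicate number as a block the Th9 difference was called (adjusted p = 0.0225), and without Th1 HA replicate 1 the Th1 difference was 2.04 (adjusted p = 0.0148). Without Th9 HA replicate 1 the Th9 difference was 2.12 (adjusted p = 0.0428). The other probe set, 1427682_a_at, was at 0.89 ± 0.24 in the average (adjusted p = 0.0173) and 1.55 in Th9 (0.0342).

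Egr3, which overlaps with Egr2 in its targets, gave different answers with its 2 probe sets. With 1421486_at, the levels were 6.46 to 7.38 in HA and 6.76 to 7.48 in PBAB arrays, which overlapped, and 7.93 to 8.34 in APC alone arrays, the highest. The averaged difference of 0.31 ± 0.14 did not pass the test (adjusted p = 0.12), but did with the replicate block (0.0167), as did those of 0.57 in Th1 (0.0217) and 0.53 in Th17 (0.0262). With 1436329_at the levels in Th1 cultures were 6.05 and 5.22 under HA and 8.28 and 7.34 under PBAB. In Th9 cultures they were 8.13 and 7.53 under HA and 8.26 and 8.47 under PBAB. In Th17 cultures they were 7.06 and 7.04 under HA and 3.72 and 3.95 under PBAB, below 5.07. This probe set was therefore higher under PBAB in Th1 (2.18 ± 0.34, adjusted p = 0.00218), at 0.53 in Th9 (adjusted p = 0.398) and lower in Th17 cultures (adjusted p = 0.000356). The Th17 difference was -3.22 as measured, and -1.98 with the PBAB arrays set to 5.07, which bounds it because their signal is not told from background. Its interaction with lineage had an adjusted p of 0.00112, and of 0.0016 to 0.00842 with each array left out in turn. The APC alone arrays had it at 4.30 to 5.16, against the highest levels for the other probe set. Which of these follows the Egr3 transcript cannot be told from the files.

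Egr1, an immediate target of growth factor and receptor signals, had the largest standard error of the tested members. Its levels were 12.59 and 9.85 in Th1 HA, 11.57 and 8.80 in Th9 HA and 9.82 and 9.73 in Th17 HA cultures. Under PBAB they were 10.10 and 10.77 in Th1, 10.62 and 11.60 in Th9 and 9.99 and 10.70 in Th17 cultures. The HA replicates of Th1 and of Th9 lay further apart than any pair of activated group means, and the PBAB levels fell between them in Th1. The averaged difference was 0.24 ± 0.53 (adjusted p = 0.799), with a 95% confidence interval from -0.94 to 1.41, which leaves the size of any difference poorly bounded.

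The differences of Fos and Junb between activations did not pass the test, and Fosb was too low to be tested. Fos, which pairs with Jun proteins, had levels of 10.49 and 8.53 in Th1 HA, 8.61 and 6.35 in Th9 HA and 8.68 and 8.35 in Th17 HA cultures. Its PBAB levels were 8.38 and 7.99 in Th1, 8.53 and 8.21 in Th9 and 9.06 and 8.64 in Th17 cultures. The 6 PBAB arrays were within the range of the 6 HA arrays, and the averaged difference was -0.03 ± 0.40 (adjusted p = 0.967; 95% interval -0.92 to 0.85). In Th1 cultures Fos was at -1.33 (adjusted p = 0.252), which was called with the replicate block (0.0491). With that block 5 of 9 members were called in Th1, against 28.3% of all genes. The block called 42.2% of all genes in the average, 26.2% in Th9 and 30.4% in Th17. Without it 3 of 9 members were called in each of Th1, Th9 and Th17, against 14.6%, 13.7% and 17.1%.

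Junb, a Jun protein that pairs with Batf in T helper cells, was at 9.31 to 11.67 in HA and 9.76 to 11.52 in PBAB arrays. Its averaged difference was 0.14 ± 0.42 (adjusted p = 0.852, 95% interval -0.79 to 1.08). With the replicate block the standard error of this difference was 0.14, and it was not called (adjusted p = 0.45). Fosb was low throughout, at 4.28 to 5.14, and only Th17 PBAB replicate 1 exceeded 5.07. Without the filter on low signals its difference was 0.24 ± 0.15 (adjusted p = 0.317), and no comparison called it. Cd69 was at 10.04 and 9.27 in Th1 HA, 9.13 and 7.53 in Th9 HA and 9.95 and 9.21 in Th17 HA cultures. Under PBAB it was at 9.72 and 10.27 in Th1, 9.18 and 9.48 in Th9 and 9.80 and 9.65 in Th17 cultures. The groups overlapped in Th1 and Th17 cultures but not in Th9, where the difference of 1.00 was not called (adjusted p = 0.21). The averaged difference was 0.50 ± 0.27 (adjusted p = 0.21, 95% interval -0.10 to 1.09). It was called without Th9 HA replicate 1, the higher of that pair, at 0.76 (adjusted p = 0.0175) in the average and 1.80 (0.0218) in Th9.

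The replicate number moved with several members, a comparison chosen after the values were seen. Junb was higher in replicate 1 than in replicate 2 in 6 of 6 activated groups, by 0.72 to 1.86, with a mean of 1.27 ± 0.14 (adjusted p = 0.000175). Fos was higher in 6 of 6 groups, by 0.32 to 2.26, with a mean of 0.95 ± 0.26 (adjusted p = 0.0215). Nr4a1 was higher in 5 of 6 groups, with a mean of 0.76 ± 0.18 (adjusted p = 0.00924), and Egr3 was lower in 5 of 6, at -0.30 ± 0.09 (adjusted p = 0.0304). Nr4a2 (-0.24, adjusted p = 0.334) and Nr4a3 (-0.04, adjusted p = 0.781) did not pass the test. Of the 9 members, 4 were called between replicate numbers, against 29.3% of all genes, and 15% of all genes were higher in replicate 1 in all 6 groups. For Egr1 the replicates differed by 2.73 in Th1 HA and 2.77 in Th9 HA, and by -0.67 and -0.97 under PBAB. The 18S rRNA control signal was also higher in replicate 1 in 6 of 6 groups, by 0.82 to 1.61, and the actin 3′ minus 5′ signal in 3 of 6. Their part in these differences was not tested, and the labels do not say what a replicate number shares.

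**Figure D5:**
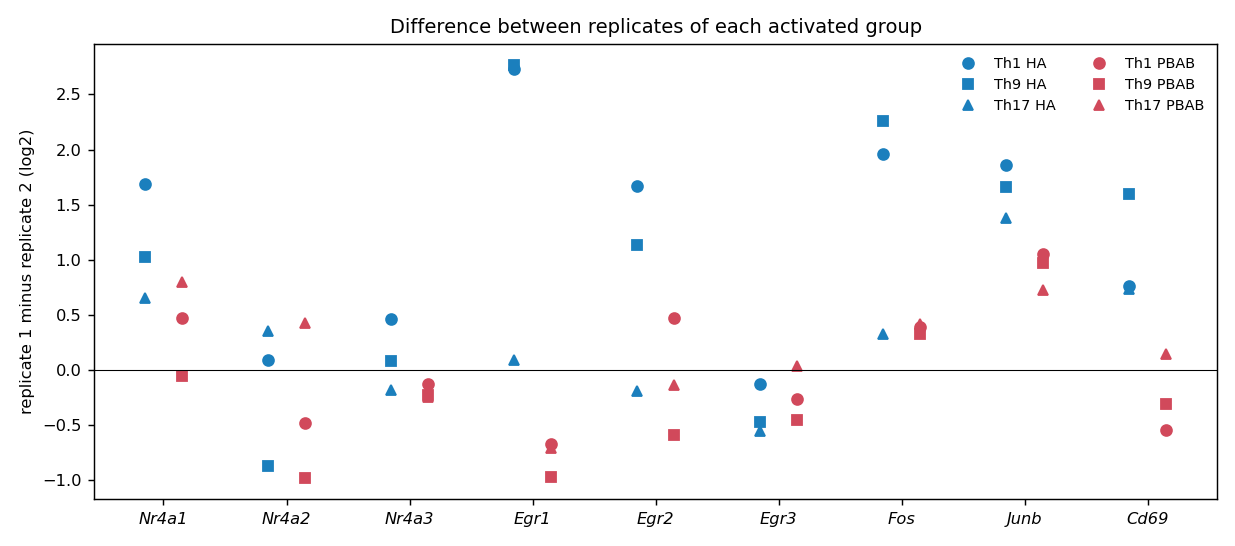
Replicate 1 minus replicate 2 (log2) in each of the 6 activated groups for the 9 members tested. Junb and Fos lie above 0 in 6 of 6 groups, and Egr1 is at 2.73 and 2.77 in Th1 HA and Th9 HA but below 0 in the 3 PBAB groups.

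Set against the arrays of APC alone, Cd69, Junb and Egr1 were higher in all 12 activated arrays, as were 40.5% of all genes. Cd69 was at 4.72 to 5.78 in APC alone arrays, Junb at 6.53 to 7.68 and Egr1 at 7.30 to 8.25. The Cd69 signal was below 5.07 in 2 of these 3 arrays, and with them set to that threshold it was higher by at least 3.88 under HA and 4.37 under PBAB (log2). As measured, HA minus APC alone was 4.08 for Cd69, 3.59 for Junb and 2.68 for Egr1 (adjusted p = 4.13e-07, 4.89e-05 and 0.00228), and PBAB minus APC alone was 4.58, 3.74 and 2.91 (1.71e-07, 3.69e-05 and 0.00131). Nr4a2 was lower under HA (-1.59, adjusted p = 0.000109) and higher under PBAB (1.46, adjusted p = 0.000214) than in APC alone arrays. Nr4a1 was at 0.48 under HA (adjusted p = 0.228) and 3.01 under PBAB (1.31e-05), and Nr4a3 at 0.05 (0.727) and 3.42 (2.06e-09), but with quantile normalization repeated the HA values of these genes turned to -1.01 and -0.41. With centred arrays these HA values were called, at 0.92 for Nr4a1 (adjusted p = 0.0399) and 0.49 for Nr4a3 (0.00469), and Nr4a1 was called without Th1 HA replicate 2 (0.76, adjusted p = 0.0256). Repeated quantile normalization also ended the calls of Egr1 under HA (1.28, adjusted p = 0.0756) and Nr4a2 under PBAB (0.37, 0.164). Egr2 was higher in both (0.90 and 1.76, adjusted p = 0.0304 and 0.000592) and Egr3 lower in both with 1421486_at (-1.24 and -0.93, adjusted p = 3.14e-05 and 0.000311), though higher under HA with 1436329_at. With that probe set the HA difference was 2.04 as measured and at least 1.74 with the low arrays set to 5.07, and no size is given for PBAB, where both sides held arrays below it. Fos did not pass the test, at -0.17 and -0.20 (adjusted p = 0.743 and 0.695), but with quantile normalization repeated it was called lower, at -1.94 and -1.91 (0.00127 and 0.00141). The Egr2 call under HA was lost without the Th1 or the Th17 array of APC alone, Th9 HA replicate 1 or Th17 HA replicate 2 (adjusted p from 0.0554 to 0.152). In all, 6 of 9 members were called under HA and 8 of 9 under PBAB, against 90.7% and 89.8% of all genes. The genes called higher were 4 members and 49.5% of all genes under HA, and 7 members and 48.7% under PBAB. Those called lower were 2 members and 41.2% under HA, and 1 member and 41.1% under PBAB. These comparisons share their control arrays, the median of all genes was 0.36 and 0.31, and centring the arrays moved it to 0.80 and 0.73. Each APC alone group had 1 array, so the spread in these tests came from the activated groups. The p-values therefore do not measure how APC alone arrays vary, which for Nr4a3 ran from 6.07 to 7.56.

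Between lineages under 1 activation and with the probe set used for each gene, Nr4a3 was the only member called in the fit of all arrays without the block. It was 1 of 9 members in Th17 against Th1 (6.9% of all genes under HA, 6.99% under PBAB) and in Th17 against Th9 (4.77% and 6.37%). In Th9 against Th1, 0 of 9 members were called under either, against 5.34% and 2.16% of all genes. The other Nr4a3 probe sets were not called between lineages, at adjusted p of 0.599 or more for 1421080_at and 0.722 or more for 1421079_at, which was below 5.07. Other probe sets of further members were called without the block. For Nr4a2, 1455034_at was lower in Th9 than in Th1 under HA (-1.32, adjusted p = 0.0378, with the Th9 signal below 5.07), and 1450750_a_at was lower in Th9 than in Th1 (-1.58, 0.00702) and higher in Th17 than in Th9 (1.19, 0.0147) under PBAB. For Egr3, 1436329_at was higher than in Th1 under HA in Th9 (2.20, adjusted p = 0.00377) and Th17 (1.42, 0.0319). Under PBAB it was lower in Th17 than in Th1 (adjusted p = 9.3e-05) and than in Th9 (5.95e-05), with differences of -2.74 and -3.29 as bounds at 5.07. For Egr2, 1427682_a_at was lower in Th17 than in Th9 under PBAB (-1.84, adjusted p = 0.0278). Egr2 with the probe set used was lower in Th17 than in Th9 PBAB cultures by a log2 difference of -1.88 (adjusted p = 0.0502), which was called with the replicate block (0.0139). With that block Nr4a2 was called lower in Th9 than in Th1 under HA (-1.17, adjusted p = 0.0387) and under PBAB (-1.30, 0.0406), and Fos under HA (-2.03, 0.0141). The block also called Nr4a1 higher in Th17 than in Th1 under HA (1.20, adjusted p = 0.0221) and Junb under PBAB (0.88, 0.029). Single HA arrays decided further values under HA. Without Th9 HA replicate 1, Cd69 was called lower in Th9 than in Th1 (-2.12, adjusted p = 0.0191) and higher in Th17 than in Th9 (2.05, 0.0287), and Fos was called lower in Th9 than in Th1 (-3.16, 0.0252). Fos was also called without Th1 HA replicate 2 (-3.01, adjusted p = 0.0474). Without Th1 HA replicate 1, Egr2 was called higher in Th9 (1.81, adjusted p = 0.0496) and Nr4a1 in Th17 (2.04, 0.037) than in Th1. With the mean of all probe sets the Nr4a3 call between Th17 and Th1 held under HA, and the other calls of Nr4a3 between lineages were lost (adjusted p = 0.173, 0.101 and 0.193). The shares of all genes called with the block were 12% and 5.56% for Th9 against Th1, 15.3% and 17% for Th17 against Th1, and 15.2% for Th17 against Th9 under PBAB.

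Related genes were described from lists by role, with PBAB minus HA averaged over lineages. In that comparison 13.2% of all genes were called higher, 17.3% lower and 30.6% in all. Of 10 other AP-1 genes, 4 were called higher and 0 lower, with a median of 0.39 against 0.02 for all genes. Atf3, a stress-induced member, was at 2.63 ± 0.32 (adjusted p = 0.00017), Maff at 0.93, Batf3 at 0.89 and Fosl1 at 0.85. Of 10 partners and upstream factors of the Egr genes, 3 were higher and 1 lower, with a median of 0.03. Crem, which encodes CRE-binding activators and repressors, rose by 1.58 ± 0.25 (adjusted p = 0.000735), Nab2, a corepressor of Egr proteins, by 0.89, and Ets2 by 0.66, while the corepressor Nab1 was at -0.35. Of 21 other immediate-early genes, 7 were higher and 2 lower, with a median of 0.32. Rgs2, a regulator of G protein signalling, was at 2.59 ± 0.19 (adjusted p = 7.53e-06), Tnfaip3 (A20) at 1.48, Ppp1r15a (GADD34) at 1.42 and Klf10 at -1.15.

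Feedback regulators of MAP kinases were called higher for 5 of 12 genes and lower for 0, with a median of 0.36, among them the phosphatase Dusp4 at 1.07, Spry1 at 0.94, Rasa2 at 0.64 and Spred1 at 0.56. Of 13 tested genes of calcium, calcineurin and NFAT signalling, 0 were higher and 5 lower, with a median of -0.22. Nfatc2, a transcription factor of this pathway, was at -1.01 ± 0.11, Stim2 at -0.47, the calcineurin subunit Ppp3cb at -0.42 and Nfatc3 at -0.35. Of 14 genes tied to anergy and to Egr2 and Egr3, 6 were higher and 2 lower, with a median of 0.57. They included the ubiquitin ligase Cblb at 1.25 ± 0.15, the costimulatory receptor Tnfrsf9 at 1.95, the adhesion molecule Crtam at 1.12 and the adaptor Grap at 0.81. The genes called lower were Rnf128 and Nrp1, each at -1.07. Of 6 tissue egress genes, 2 were higher and 3 lower, with a median of -0.59. The factor Klf2 was at -2.73 ± 0.16 and its target S1pr1 at -1.35 ± 0.17, S1pr4 was at -1.03 and the lymph node homing receptor Ccr7 at 1.05. Counts of T cell markers were 1 higher and 3 lower of 10, and of B cell markers 0 and 0 of 8. They were 0 and 1 of 5 for dendritic cell, 0 and 2 of 5 for granulocyte, and 0 and 2 of 4 for NK and CD8 markers. These counts and those above stand against 13.2% of all genes called higher and 17.3% lower.

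Across the 12 activated arrays, which share groups and replicate numbers, the members fell into more and less similar pairs. Nr4a1 and Nr4a3 correlated at r = 0.915, Nr4a2 with them at 0.83 and 0.834, Fos with Junb at 0.793, Fos with Cd69 at 0.718 and Egr1 with Fos at 0.694. Among all tested genes outside the members, the most alike by r was Ptov1 for Nr4a1 (0.979), Sar1a for Nr4a2 (0.967) and Ipo7 for Nr4a3 (0.975). It was Myh7b for Egr1 (0.85), Myo1e for Egr2 (0.932), Pla2g10 for Egr3 (0.969), Homer1 for Fos (0.904), Napa for Junb (0.972) and Nfkbiz for Cd69 (0.896). Among the 100 most alike genes of each member, Nr4a1 had Nr4a3 and Nr4a3 had Nr4a1, Egr1 had Fos and Fos had Junb, while the others had 0 members.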

How the data were processed

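Biotin-labelled RNA, amplified from 500 ng, was hybridised to 15 Affymetrix mouse arrays, per the labels' protocols. The deposited table held log2 expression levels of 45101 probe sets. The authors computed them by RMA (background correction, quantile normalization, probe summary), per the submitters' processing notes, in a version not stated there; the log base was read from the range of values. Quantile normalization is meant to set the distributions of arrays alike, so levels are relative. The deposited levels were not fully alike, with array medians of 5.89 to 5.93 in APC alone and 5.45 to 5.54 in activated arrays.

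Names came from the platform's 2016 annotation: 34958 probe sets had 1 gene symbol and were used, 932 had several and 9211 were unnamed here. The probe set with the highest mean stood for each of 18194 genes. Genes above 5.07, the 40th percentile, in at least 2 arrays were tested, 15498 in all. A signal below that is not told from background. All 15 arrays entered 1 fit in limma 3.58.1 (R 4.3.3), with a mean for each group, 6 residual and 4.38 prior degrees of freedom. The fit was tested on simulated data without a replicate effect, so that test cannot speak to the pairing of these arrays. The named genes were all members, up to 4 genes of each list with the smallest p, and the anergy genes called lower. Also named were the macrophage and monocyte markers called higher or below 5.07 in all PBAB arrays, and the gene most alike to each member. Of 148 list entries, 138 were matched.

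Replicate numbers were checked as pairs: deviations of same-numbered samples from group means correlated in all 15 pairs of groups, at 0.296 to 0.708. The numbers were therefore taken to pair the samples. The main tests did not use this pairing. The blocked value is given where it changes a call with the probe set used, and for the averaged Junb difference. Blocked calls of other probe sets are not all given. The labels call replicates biological without naming animals or cultures, so the p-values cover only the spread of the activated samples, which may be technical. The groups of APC alone had 1 array each and added nothing to that spread. The number of arrays limits the precision. Alternatives were other filters, centred arrays, repeated quantile normalization, the mean of all probe sets, other probe sets, array weights, the block, the arrays of a lineage alone and each array left out. The members and lists were chosen with earlier results of these data known.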

Additional observations from a re-analysis of the deposited data

Results flagged for a closer look

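The PBAB minus HA difference of Nr4a3 differed between lineages in the interaction test (limma, adjusted p = 0.000882), at 4.55 in Th1, 4.09 in Th9 and 1.47 in Th17 cultures (log2, 2 arrays per group). With either of its other probe sets alone the adjusted p was 0.755 (1421080_at) and 0.888 (1421079_at, below 5.07 in all arrays).

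The Egr3 probe set 1436329_at also differed between lineages in that test (limma, adjusted p = 0.00112), at 2.18 in Th1, 0.53 in Th9 and -3.22 in Th17 cultures. The Th17 PBAB level was below 5.07, and with it set to that threshold the Th17 difference was -1.98, a bound. The Egr3 probe set 1421486_at had no such call, at 0.57, -0.16 and 0.53.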

How the results depend on the processing

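Of 1611 values of members under the alternatives, 38 gained the call, 40 lost it, 20 turned sign with a call before or after, and the other 1513 stayed on their side of the threshold. The 20 do not include comparisons between lineages with other probe sets, where signs also turned. The sign turned in 92 of 1431 signed values, of which 72 were called under neither setting. The averaged calls of Nr4a1, Nr4a2 and Nr4a3 were kept under all of these except Nr4a2 with 1433422_at and Nr4a3 with 1421080_at.

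The replicate block raised the genes called in PBAB minus HA from 2266 to 4380 in Th1 (members from 3 to 5), from 2126 to 4056 in Th9 and from 2648 to 4709 in Th17, and those of the interaction from 649 to 2316. Under HA the block gave 1863 genes for Th9 against Th1 (827 without; members 2), 2373 for Th17 against Th1 (1069; members 2) and 1831 for Th17 against Th9 (739). Under PBAB it gave 861 (334; members 1), 2642 (1083; members 2) and 2351 (987; members 2). With the probe set used for each gene the block changed no member call beyond those given. For Th17 against Th9 under PBAB, the 60th percentile filter, repeated quantile normalization, the mean of all probe sets and array weights also gave 2 members, against 1. With the mean of all probe sets, 1 member was called for Th9 against Th1 under HA, 0 for Th17 against Th9 under HA and 2 in the interaction. The 4 Th9 arrays alone gave 1279 genes. Repeated quantile normalization moved the share of higher calls in Th1 from 35.7% to 46.9%.

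With each array left out, genes called were 1078 to 1602 in Th1, 1056 to 1424 in Th9, 1214 to 2032 in Th17 and 309 to 578 in the interaction. They were 474 to 581, 591 to 754 and 364 to 390 under HA, and 123 to 154, 455 to 608 and 458 to 509 under PBAB, for Th9 against Th1, Th17 against Th1 and Th17 against Th9. Members called were 2 to 5 in Th9, and under HA 0 to 2, 1 to 2 and 0 to 2 in the same order. The fit with fewer arrays had fewer degrees of freedom, and a lone array was assumed to vary like the other groups.

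Among values with a call, signs turned with repeated quantile normalization for HA minus APC alone of Nr4a1 (-1.01) and Nr4a3 (-0.41). With the mean of all probe sets they turned for Nr4a3 in HA minus APC alone (-0.45), and for Egr3 in Th17 PBAB minus HA (-1.34), Th17 minus Th9 under PBAB (-2.13), HA minus APC alone (0.40) and PBAB minus APC alone (0.47). With 1433422_at, Nr4a2 was at -0.11 in the average, -0.17 in Th1, -0.19 in Th17 and -0.84 in PBAB minus APC alone, and with 1433423_at at 0.15 in HA minus APC alone. Nr4a3 was at -0.17 in Th9, -0.61 in HA minus APC alone and -0.57 in PBAB minus APC alone with 1421080_at, and at -0.80 and -0.49 in the latter comparisons with 1421079_at. Egr3 with 1436329_at was at -3.22 in Th17, 2.04 in HA minus APC alone and 1.87 in PBAB minus APC alone, each with arrays below 5.07. The cause was not tested. The test between replicate numbers and the Egr3 probe set with arrays left out were chosen after seeing the data.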
